A study of Arabidopsis thaliana with 36 samples.

Results

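The data are the RNA-seq libraries of *ga4* roots after 8 h on 140 mM NaCl, compared with *ga4* roots after 8 h under mock conditions. The members were taken from the sample labels and comprise 6 of the 36 libraries of the study, 3 of each treatment. *ga4* is an Arabidopsis mutant in the Landsberg erecta (Ler) background that is defective in a late step of gibberellin (GA) synthesis. The other genotypes of 8 h were *gai*, which carries a DELLA protein that GA cannot remove, *della5x*, a quintuple mutant without DELLA function that combines gai-t6 with rga-t2 and the alleles rgl1-1, rgl2-1 and rgl3-4, and Ler, the wild type, each with 3 NaCl and 3 mock libraries. Seedlings were 5 d old, and each library holds the lower 1 cm of the roots of many pooled seedlings, so that the values are means over plants and over all cell types of that segment. In such bulk samples, fewer cells of a type and less RNA per cell cannot be told apart. The *ga4* plants carry the lesion in every cell, and each genotype is 1 line.

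GA is a growth hormone that acts by removing the DELLA proteins, which hold back growth when GA is low. It binds the receptor GID1, and the receptor with GA bound marks DELLA proteins for degradation, so that a plant poor in GA, such as *ga4*, accumulates DELLAs. Salt raises the level of another hormone, abscisic acid (ABA), whose receptors of the PYR/PYL family inhibit the clade A PP2C phosphatases, and this frees SnRK2 kinases to activate stress genes through bZIP transcription factors. Since salt lowers active GA in many plants, the libraries of *ga4* ask how roots that are already short of GA respond to salt.

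The 6 libraries held between 17142998 and 19797526 counts on genes. Levels are given as CPM, counts scaled to a library of 1000000 counts after TMM normalization, for libraries 1, 2 and 3 of a group in turn. The log2 fold change (log2 FC) of NaCl over mock is given with its SE, and the adjusted P (Padj) is that of edgeR's quasi-likelihood test over 20355 genes. The libraries had no replicate numbers in the labels and were numbered by accession. Library 3 stood apart from the others in both *ga4* groups. On the leading component of the deviations from the group means, the 3 NaCl libraries of *ga4* had scores of -20.2, -19.8 and 40.0, against -14.1, -12.1 and 26.2 for the 3 mock libraries, and library 3 had the highest score in all 8 groups of 8 h. No label names a batch, and what sets library 3 apart was not tested. Without library 3 of both *ga4* groups, 1941 genes were upregulated and 1646 downregulated, close to the counts with all libraries given further on.

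**Figure D1:**
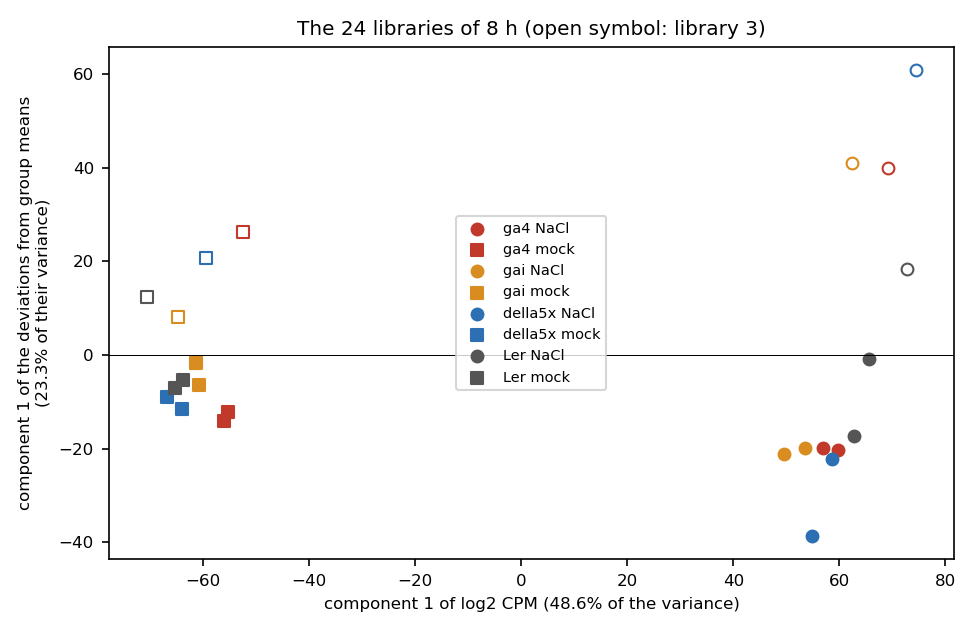
Scores of the 24 libraries of 8 h on the first component of log2 CPM (x axis, 48.6% of the variance) and on the first component of the deviations from the group means (y axis, 23.3% of that variance), with circles for NaCl, squares for mock and open symbols for library 3. The NaCl libraries lie on the right and the mock libraries on the left, and the open symbols lie highest in each group.

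Genes of root tissues were present in all 6 libraries. The summed level of 3 stele markers was lower on NaCl, at 400.3, 394 and 458 CPM, against 706, 671 and 901 CPM under mock conditions, and that of 4 cortex and endodermis markers was 257, 248 and 199.7 CPM, against 361, 358 and 291 CPM. The summed xylem markers were higher, at 192, 153 and 155 CPM on NaCl, against 147, 138 and 133 CPM, and so were the phloem markers, at 65.7, 60.7 and 71 CPM, against 54.8, 44.9 and 47 CPM. The groups were not tested for these sums, which follow the most abundant members. Singly, 2 of 3 stele markers were downregulated, and of 4 cortex and endodermis markers 1 was upregulated and 2 downregulated. Of 3 phloem markers 1 was upregulated, and of 3 xylem markers 0 were called. The ranges of both treatments overlapped for the markers of epidermis, meristem and root cap. Transcripts of green tissue, which a root segment should lack, were detected at sums of 178, 182 and 94 CPM on NaCl, against 251, 309 and 161 CPM under mock conditions, over 14 genes of which 1 had no count in any *ga4* library. These overlapping ranges were lower in library 3 of both groups, and their part in the results was not tested.

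*GA3OX1* (AT1G15550, chromosome 1, positions 5344388 to 5346342 in TAIR10.1), which makes active GA in the step that *ga4* lacks, had 12.7, 19.8 and 14.8 CPM on NaCl, against 16.7, 13 and 10.9 CPM under mock conditions, with a log2 FC of 0.22 ± 0.29, Padj = 0.645. The groups overlapped. Its mean over 3 libraries each was 15.8 ± 3.61 and 13.6 ± 2.94 CPM in *ga4* on NaCl and under mock conditions and 10.9 ± 1.38 and 8.2 ± 1.3 CPM in Ler, so that the transcript was present in the mutant and does not check the label of the libraries.

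Salt raised and lowered large parts of the transcriptome of *ga4* roots. Of 20355 genes tested, 2168 (10.7%) were upregulated and 1833 (9.01%) downregulated at Padj below 0.05 and a log2 FC above 0.5 or below -0.5, and the median log2 FC over all genes was -0.01. All 3 NaCl libraries lay above all 3 mock libraries for 3929 genes (19.3%) and below them for 3749 genes (18.4%). These are shares over all genes tested, whereas genes named below were mostly chosen by their P or change in these same libraries. A lack of overlap thus describes their levels and adds no support to their calls.

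Among the 8 upregulated genes with the smallest P, the beta-glucosidase gene *BGLU24* (AT5G28510) had 302, 251 and 225 CPM on NaCl, against 0.857, 0.501 and 0.375 CPM under mock conditions (log2 FC 8.79 ± 0.29, Padj = 8.87e-15). *SAG29* (AT5G13170), a sugar transporter of the SWEET family, had 226, 154 and 215 CPM on NaCl, against 0.605, 0.451 and 1.02 CPM under mock conditions (8.16 ± 0.35, Padj = 1.03e-12). *AT5G28520*, a mannose-binding lectin, had 204, 161 and 178 CPM on NaCl, against 2.12, 1.6 and 1.39 CPM under mock conditions (6.72 ± 0.30, Padj = 1.08e-12). The levels of these 3 genes were low in every mock library. *MIOX1* (AT1G14520), an inositol oxygenase, had 82.2, 71.6 and 51.5 CPM on NaCl, against 3.08, 2 and 2.15 CPM under mock conditions (4.82 ± 0.24, Padj = 6.13e-12). The amino acid transporter *AT5G65990* had 46.2, 41.7 and 63.1 CPM on NaCl, against 6.66, 5.81 and 5.04 CPM under mock conditions (3.11 ± 0.15, Padj = 4.24e-12). *HVA22D* (AT4G24960), an ABA-induced membrane protein, had 176, 150.2 and 230.0 CPM on NaCl, against 29, 24.5 and 29 CPM under mock conditions (2.75 ± 0.14, Padj = 1.01e-11). The list was completed by the glycoside hydrolase *AT5G55180*, with a log2 FC of 2.68 ± 0.14, Padj = 7.80e-12, and by the phosphatase gene *ABI2*, described with its family. No library of one treatment overlapped with the other for any of these 8 genes.

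The 8 downregulated genes with the smallest P were led by *GASA1* (AT1G75750), a cysteine-rich peptide of the GA-stimulated Arabidopsis family, with 117, 135 and 102 CPM on NaCl, against 584, 688 and 558 CPM under mock conditions (log2 FC -2.37 ± 0.13, Padj = 3.63e-11). *XTH16* (AT3G23730) and *XTH21* (AT2G18800) encode xyloglucan endotransglucosylase/hydrolases, which cut and rejoin the xyloglucans of the wall. *XTH16* had 4.49, 2.3 and 3.94 CPM on NaCl, against 34.9, 35.1 and 29.3 CPM under mock conditions (-3.21 ± 0.22, Padj = 3.55e-10). *XTH21* had 15.7, 16.3 and 15.8 CPM on NaCl, against 56, 45 and 47 CPM under mock conditions (-1.63 ± 0.12, Padj = 1.97e-09). Both stood below their mock levels in each of the 3 NaCl libraries. The subtilase gene *SBT4.12* (AT5G59090) had 50.9, 63.5 and 64.7 CPM on NaCl, against 249, 254 and 304 CPM under mock conditions (-2.17 ± 0.16, Padj = 2.32e-09). The inositol phosphate synthase gene *MIPS3* (AT5G10170) had 6.4, 9.47 and 10.7 CPM on NaCl, against 44.3, 39.9 and 36.9 CPM under mock conditions (-2.18 ± 0.16, Padj = 2.22e-09). A vacuolar calcium-binding protein gene, *AT1G62480*, had 13, 17.2 and 16.4 CPM on NaCl, against 115, 161 and 124 CPM under mock conditions (-3.1 ± 0.18, Padj = 6.44e-11). For the remaining genes the log2 FC was -3.65 ± 0.28, Padj = 2.39e-09 for the phosphatase gene *AT2G01900* and -2.79 ± 0.21, Padj = 1.58e-09 for *AT1G17300*, a gene with no role given here. None of the 8 overlapped between treatments.

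**Figure D2:**
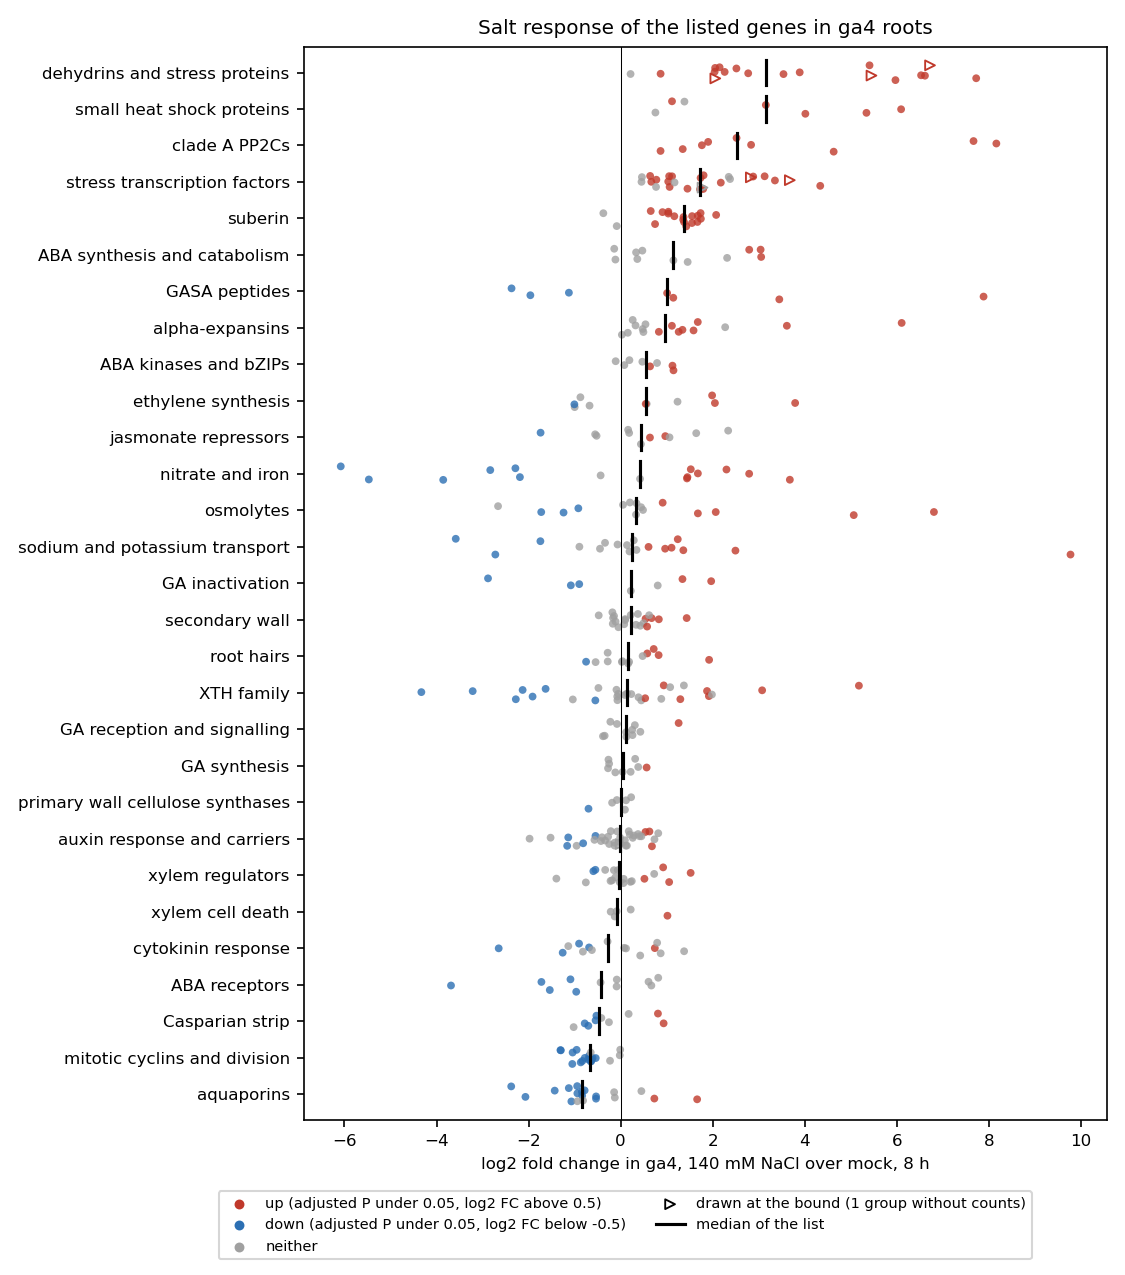
log2 FC of NaCl over mock in *ga4* roots (x axis) for the genes of 29 lists (y axis), 1 point per gene tested, red for upregulated, blue for downregulated and grey for neither, with a black bar at the median of each list. Open triangles stand at the bound for genes without a count in 1 of the groups. Dehydrins, small heat shock proteins and PP2C phosphatases lie furthest right, with medians of 3.15, 3.15 and 2.52, and aquaporins furthest left, with a median of -0.84.

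Of 9 genes tested for GA synthesis, 1 was upregulated and none downregulated (median log2 FC 0.04), a count near the share of upregulated genes over all genes tested (10.7%). It was *GA2* (AT1G79460), ent-kaurene synthase, with 13.2, 16.1 and 15.6 CPM on NaCl, against 10.1, 10.6 and 9.7 CPM under mock conditions (0.56 ± 0.15, Padj = 0.00771), and the groups did not overlap, but without both libraries 3 the call was lost (log2 FC 0.50, Padj = 0.066). *GA20OX2* (AT5G51810) and *GA3OX2* (AT1G80340) encode the oxidases that precede and complete active GA. *GA20OX2* had 13.2, 12.2 and 8.37 CPM on NaCl, against 10.9, 9.97 and 6.22 CPM under mock conditions (log2 FC 0.31 ± 0.31, Padj = 0.514). *GA3OX2* had 14.3, 14.1 and 29.9 CPM on NaCl, against 18.7, 10.6 and 27.4 CPM under mock conditions (log2 FC 0.04 ± 0.39, Padj = 0.952). Their groups overlapped.

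GA 2-oxidases inactivate GA. Among 7 genes of GA inactivation, 2 were upregulated and 3 downregulated (median 0.22). Leaving out mock library 1 or NaCl library 2 gave 1 up and 2 down, and leaving out mock library 2, NaCl library 1 or NaCl library 3 gave 2 up and 1 down. *GA2OX6* (AT1G02400) had 55.4, 44.2 and 105 CPM on NaCl, against 23.1, 22.4 and 35.1 CPM under mock conditions (1.34 ± 0.28, Padj = 1.00e-03), with library 3 highest in both groups and no overlap. *GA2OX1* (AT1G78440) had the largest fall, with 0.179, 0.321 and 0 CPM on NaCl, against 1.81, 1.35 and 0.643 CPM under mock conditions (-2.88 ± 1.02, Padj = 0.0392), but its call was lost without mock library 1, mock library 2, NaCl library 1 or NaCl library 3 (log2 FC -2.54, Padj = 0.114, -2.83, Padj = 0.0752, -2.93, Padj = 0.0911 and -2.31, Padj = 0.13). *GA2OX2* (AT1G30040) had 4.19, 9.47 and 7.99 CPM on NaCl, against 0.857, 1.9 and 2.79 CPM under mock conditions (1.97 ± 0.58, Padj = 0.0147), a call that was lost without NaCl library 2 (log2 FC 1.72, Padj = 0.0576) and without mock library 1 (log2 FC 1.62, Padj = 0.0796).

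In GA reception, 1 of 11 genes was upregulated and none downregulated (median 0.12), likewise near the share over all genes. *GID1B* (AT3G63010), a GA receptor, had 57.6, 61.6 and 66.9 CPM on NaCl, against 28.7, 23.9 and 25.1 CPM under mock conditions (log2 FC 1.26 ± 0.09, Padj = 2.13e-09). The NaCl libraries all lay above the mock libraries. The receptors *GID1A* (AT3G05120) and *GID1C* (AT5G27320) had log2 FCs of 0.25 ± 0.14, Padj = 0.214 and 0.12 ± 0.14, Padj = 0.576. Of the DELLA genes, *RGA* (AT2G01570) had 79.6, 87.2 and 76.2 CPM on NaCl, against 97.1, 113 and 98.8 CPM under mock conditions (-0.35 ± 0.10, Padj = 0.0137), below the mock libraries in each NaCl library but with a log2 FC inside the limit of 0.5. *GAI* (AT1G14920) had 13.1, 16.2 and 13.9 CPM on NaCl, against 19.4, 20.4 and 16.6 CPM under mock conditions (-0.38 ± 0.16, Padj = 0.0873), also without overlap but not past the test, and *RGL1*, *RGL2* and *RGL3* had log2 FCs of -0.22, 0.31 and 0.43, none past the test. These are transcript levels, and DELLA activity is set mainly by protein stability.

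The GASA family of GA-regulated peptides moved in both directions, with 4 of 7 tested members upregulated and 3 downregulated (median 1.01). Against the fall of *GASA1*, *GASA4* (AT5G15230) had 606, 558 and 508 CPM on NaCl, against 282, 332 and 217 CPM under mock conditions (1.01 ± 0.19, Padj = 2.81e-04). *GASA3* (AT4G09600) had 15.8, 10.7 and 26.6 CPM on NaCl, against 0, 0.2 and 0 CPM under mock conditions (7.88 ± 0.65, Padj = 5.30e-08). *GASA5* (AT3G02885), a member known to restrain growth and flowering, had 12.7, 15 and 20.19 CPM on NaCl, against 0.454, 0.651 and 3.32 CPM under mock conditions (3.45 ± 0.58, Padj = 1.04e-04). All 3 were higher in each NaCl library than in any mock library. *GASA14* (AT5G14920) was lower on NaCl, at 1.08, 3.32 and 6.75 CPM on NaCl, against 14.4, 17 and 12.3 CPM under mock conditions (-1.96 ± 0.56, Padj = 0.0113), and its call was lost without NaCl library 1 (log2 FC -1.53, Padj = 0.0581).

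**Figure D3:**
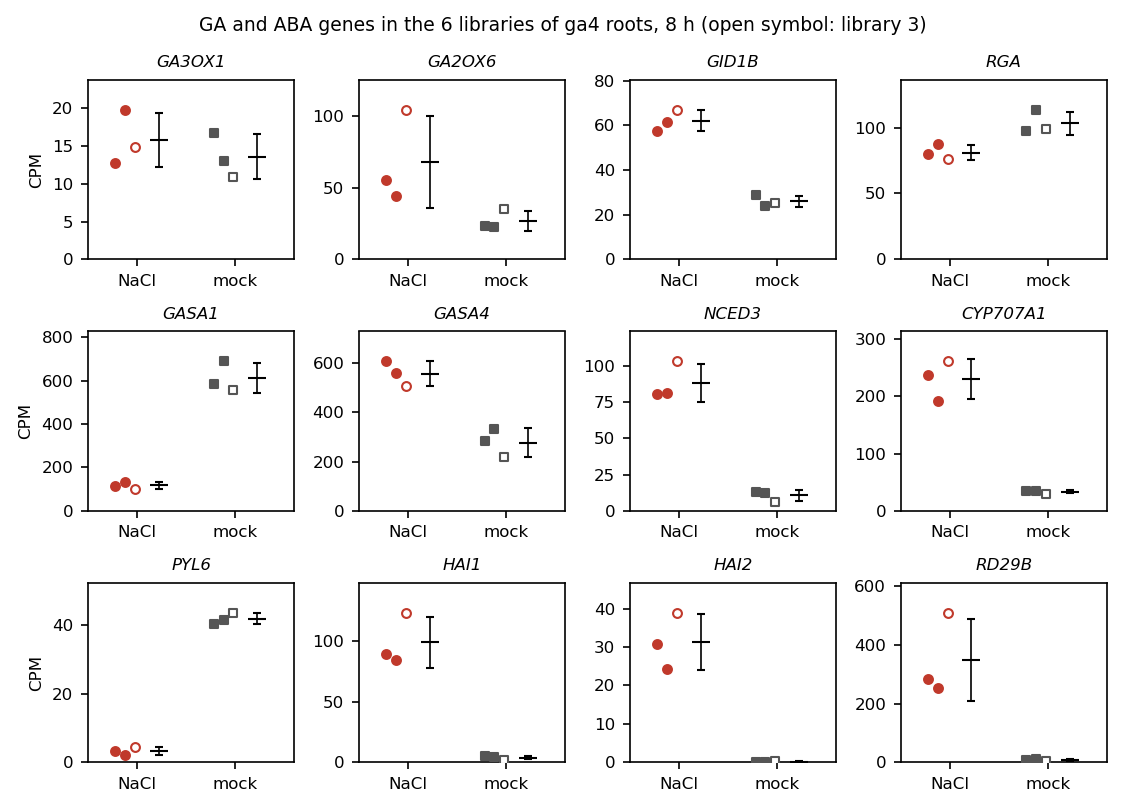
Levels (y axis, CPM) of GA and ABA genes in the 3 NaCl (red circles) and 3 mock (grey squares) libraries of *ga4* roots, with the mean and SD as bars and library 3 as open symbols. *GA3OX1* overlaps between treatments, whereas *GID1B*, *NCED3*, *HAI1* and *HAI2* lie higher on NaCl and *GASA1* and *PYL6* lower.

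Of 11 genes of ABA synthesis and breakdown, 3 were upregulated and none downregulated (median 1.15), with members of both processes among them. *NCED3* (AT3G14440), the dioxygenase of the rate-limiting step of ABA synthesis, had 80.4, 81.3 and 103 CPM on NaCl, against 13.1, 12.7 and 6.33 CPM under mock conditions (log2 FC 3.04 ± 0.24, Padj = 5.21e-09). *CYP707A1* (AT4G19230), the hydroxylase that breaks ABA down, had 237, 192 and 261 CPM on NaCl, against 35, 34.2 and 30.4 CPM under mock conditions (log2 FC 2.79 ± 0.18, Padj = 2.55e-10). Neither overlapped between treatments. *CYP707A4* (AT3G19270), of the same family, had 1.44, 1.82 and 0.27 CPM on NaCl, against 0.303, 0.1 and 0 CPM under mock conditions (3.05 ± 0.90, Padj = 0.0171), a call lost without mock library 2, mock library 3 or NaCl library 2 (log2 FC 2.88, Padj = 0.0716, 2.51, Padj = 0.0652 and 2.58, Padj = 0.0759).

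Of 11 ABA receptor genes, 5 were downregulated and none upregulated (median -0.44). *PYL6* (AT2G40330) had 3.23, 2.03 and 4.48 CPM on NaCl, against 40.5, 41.5 and 43.6 CPM under mock conditions (log2 FC -3.69 ± 0.34, Padj = 4.23e-08). *PYL4* (AT2G38310) had 28.9, 25.6 and 25.4 CPM on NaCl, against 94.5, 87.2 and 82.1 CPM under mock conditions (-1.72 ± 0.15, Padj = 2.16e-08). *PYL5* (AT5G05440) had 19.1, 21.4 and 14.4 CPM on NaCl, against 53.2, 61 and 45.4 CPM under mock conditions (-1.54 ± 0.22, Padj = 1.12e-05). In all 3 receptors each NaCl library was below each mock library. *PYL1* (AT5G46790) and *PYR1* (AT4G17870) had log2 FCs of -1.09 ± 0.13, Padj = 1.58e-06 and -0.97 ± 0.09, Padj = 4.83e-08.

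The PP2C phosphatases, which the receptors inhibit and which hold ABA signalling back, all rose. All 9 clade A genes were upregulated (median 2.52), and in each of the genes named here the 3 NaCl libraries lay above the 3 mock libraries. *HAI1* (AT5G59220) had 89.7, 84.2 and 123 CPM on NaCl, against 4.94, 4.76 and 2.25 CPM under mock conditions (log2 FC 4.63 ± 0.27, Padj = 5.74e-11). *HAI2* (AT1G07430) had 30.8, 24.2 and 38.9 CPM on NaCl, against 0, 0.0501 and 0.268 CPM under mock conditions (log2 FC 8.16 ± 0.49, Padj = 8.05e-11). *HAI3* (AT2G29380) had 87.3, 55.2 and 111 CPM on NaCl, against 0.857, 0.3 and 0.0536 CPM under mock conditions (log2 FC 7.67 ± 0.43, Padj = 3.63e-11). *HAI2* and *HAI3* were thus near silent under mock conditions, while *ABI1* and *ABI2*, known from ABA-insensitive mutants, were already expressed there. *ABI1* (AT4G26080) had 442, 377 and 391 CPM on NaCl, against 112, 111 and 101 CPM under mock conditions (1.9 ± 0.12, Padj = 1.37e-10). *ABI2* (AT5G57050) had 79.9, 68.6 and 90.1 CPM on NaCl, against 11.1, 10.2 and 12.2 CPM under mock conditions (2.83 ± 0.14, Padj = 5.48e-12). Of 8 genes for SnRK2 kinases and bZIP factors, 3 were upregulated and none downregulated (median 0.55). They were *SNRK2.6* (AT4G33950), the kinase of guard cell ABA signalling, with a log2 FC of 1.15 ± 0.11, Padj = 7.52e-08, and the bZIP factors *ABF2* (AT1G45249, 1.12 ± 0.11, Padj = 1.43e-07) and *ABF1* (AT1G49720, 0.64 ± 0.15, Padj = 0.0022).

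The bZIP factors bind ABA-response elements whose core is ACGTG. The 250 bases before the annotated gene start were searched for ACGTG on both strands, which reads as CACGT on the strand shown, in the TAIR10.1 sequence of the Columbia accession, and Ler may differ. The core was present in 23.94% of 20317 promoters of genes tested, in 31.44% of 2166 promoters of upregulated genes and in 24.82% of 1829 promoters of downregulated genes. It was found in 6 of 9 PP2C promoters, 13 of 18 dehydrin and stress protein promoters, 6 of 19 suberin promoters, 3 of 11 ABA receptor promoters and 1 of 19 aquaporin promoters. A match describes the sequence and does not show a binding site. Another core, CCGAC, which the CBF and DREB factors bind, was present in 12.83% of all promoters, 13.71% of those of upregulated and 9.404% of those of downregulated genes, and in 7 of 18 dehydrin and stress protein promoters. The sequences below are shown for the 3 HAI genes, which had the largest fold changes among the phosphatases, and for 3 genes of stress proteins described next. ACGTG and CACGT are in capitals, and each sequence is written 5′ to 3′ on the strand of its gene.
HAI1 (TAIR10.1 chr5:23896940-23897189, minus strand): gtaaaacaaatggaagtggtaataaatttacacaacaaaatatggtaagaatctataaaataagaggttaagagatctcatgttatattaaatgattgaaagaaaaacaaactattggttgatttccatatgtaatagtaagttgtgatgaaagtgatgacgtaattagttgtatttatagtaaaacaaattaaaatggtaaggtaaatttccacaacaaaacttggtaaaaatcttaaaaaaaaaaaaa
HAI2 (TAIR10.1 chr1:2282829-2283078, minus strand): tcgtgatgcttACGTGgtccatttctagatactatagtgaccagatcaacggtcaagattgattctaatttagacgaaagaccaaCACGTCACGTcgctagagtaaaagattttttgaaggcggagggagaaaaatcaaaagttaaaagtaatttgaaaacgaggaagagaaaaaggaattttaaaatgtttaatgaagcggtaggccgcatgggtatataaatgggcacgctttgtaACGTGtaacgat
HAI3 (TAIR10.1 chr2:12608425-12608674, plus strand): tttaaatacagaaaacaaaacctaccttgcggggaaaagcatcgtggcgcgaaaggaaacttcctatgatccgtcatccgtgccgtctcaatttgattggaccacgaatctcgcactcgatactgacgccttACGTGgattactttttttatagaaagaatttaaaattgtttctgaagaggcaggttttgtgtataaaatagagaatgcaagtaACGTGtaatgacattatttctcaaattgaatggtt
RD29B (TAIR10.1 chr5:21236771-21237020, plus strand): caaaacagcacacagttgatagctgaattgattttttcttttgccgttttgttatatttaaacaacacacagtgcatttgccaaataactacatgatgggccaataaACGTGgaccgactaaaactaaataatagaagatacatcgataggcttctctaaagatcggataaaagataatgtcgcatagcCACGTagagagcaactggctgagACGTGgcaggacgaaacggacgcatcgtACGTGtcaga
RAB18 (TAIR10.1 chr5:26519448-26519697, minus strand): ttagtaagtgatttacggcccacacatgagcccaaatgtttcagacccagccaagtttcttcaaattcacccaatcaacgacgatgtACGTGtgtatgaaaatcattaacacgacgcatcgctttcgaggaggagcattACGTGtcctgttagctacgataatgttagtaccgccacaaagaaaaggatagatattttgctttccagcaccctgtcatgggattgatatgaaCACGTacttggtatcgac
LEA4-5 (TAIR10.1 chr5:2090431-2090680, minus strand): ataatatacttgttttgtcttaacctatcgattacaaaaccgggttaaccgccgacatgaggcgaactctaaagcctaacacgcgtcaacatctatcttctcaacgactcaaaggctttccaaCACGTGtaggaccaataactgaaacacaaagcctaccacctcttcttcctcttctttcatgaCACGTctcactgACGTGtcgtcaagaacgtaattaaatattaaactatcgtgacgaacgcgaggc
*HAI1* held no match in this window although its fold change was large, *HAI2* held 4 and *HAI3* held 2. *RD29B* and *LEA4-5* held 4 each and *RAB18* held 3. The 4 matches of *LEA4-5* include a palindrome, CACGTG, that counts on both strands, and in *HAI2* a pair of matches lies side by side.

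Dehydrins and other stress proteins, which are thought to protect membranes and proteins when cells lose water, rose almost as a whole. Of 18 genes tested, 17 were upregulated and none downregulated (median log2 FC 3.71, or 3.15 with 3 genes without mock counts at their bound). *RD29A* (AT5G52310) was among the most abundant, with 1799, 1458 and 1935 CPM on NaCl, against 148, 119 and 83.2 CPM under mock conditions (log2 FC 3.89 ± 0.25, Padj = 1.80e-10). *RD29B* (AT5G52300), a marker of ABA response, had 284, 253 and 508 CPM on NaCl, against 9.13, 12.1 and 3.27 CPM under mock conditions (log2 FC 5.41 ± 0.47, Padj = 1.73e-08). *LEA4-5* (AT5G06760) had 155, 137 and 304 CPM on NaCl, against 2.77, 2.25 and 1.02 CPM under mock conditions (6.61 ± 0.48, Padj = 1.33e-09). None of these 3 genes overlapped between treatments, and library 3 had the highest level on NaCl and the lowest under mock conditions in each. *RAB18* (AT5G66400), a dehydrin, had 38.6, 56.5 and 38.9 CPM on NaCl, against 0, 0.601 and 0 CPM under mock conditions (7.72 ± 0.65, Padj = 9.45e-09). *KIN1* (AT5G15960) had a log2 FC of 5.97 ± 0.36, Padj = 1.04e-10, but it lies beside a near-identical copy, so that its reads may be shared. *COR15A* (AT2G42540), a chloroplast stress protein, had no count in any mock library and 220, 102 and 558 counts on NaCl, at least 105-fold higher than the limit of 3 counts per library. Its tandem copy *COR15B* (AT2G42530) had 124, 40 and 197 counts, at least 43.7-fold higher than that limit. The exception was *ERD14* (AT1G76180), with 760.3, 796 and 929 CPM on NaCl, against 784, 791 and 566 CPM under mock conditions (0.21 ± 0.16, Padj = 0.348).

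Of 15 genes for osmolytes, 5 were upregulated and 3 downregulated (median 0.34). *P5CS1* (AT2G39800), which starts proline synthesis, had 475, 466 and 374 CPM on NaCl, against 114, 115 and 85.5 CPM under mock conditions (2.06 ± 0.16, Padj = 3.77e-09). *PRODH1* (AT3G30775), which starts proline breakdown, had 60.8, 126 and 69 CPM on NaCl, against 301, 331 and 216 CPM under mock conditions (-1.73 ± 0.31, Padj = 2.28e-04). Both changed without overlap, in opposite directions. *GOLS4* (AT1G60470) and *GOLS2* (AT1G56600) encode galactinol synthases of the raffinose pathway. *GOLS4* had 67.2, 53.2 and 76.5 CPM on NaCl, against 1.06, 0.401 and 4.5 CPM under mock conditions (5.06 ± 0.49, Padj = 7.62e-08). *GOLS2* had 29.2, 10.2 and 26.2 CPM on NaCl, against 0, 0.1 and 0.482 CPM under mock conditions (6.8 ± 0.88, Padj = 4.07e-06). Every NaCl library was above every mock library for both.

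Stress transcription factors rose in 19 of 26 cases and fell in none (median 1.73). Upregulated were 16 without mock library 3 or NaCl library 3, and 14 without both libraries 3. *ATHB7* (AT2G46680), an ABA-induced homeodomain factor, had 103, 104 and 158 CPM on NaCl, against 12.1, 11.3 and 12.5 CPM under mock conditions (log2 FC 3.35 ± 0.25, Padj = 2.32e-09). Its close relative *ATHB12* (AT3G61890) had 14.2, 16.6 and 30.2 CPM on NaCl, against 1.61, 1.3 and 0.0536 CPM under mock conditions (4.33 ± 0.53, Padj = 1.88e-06). *WRKY15* (AT2G23320) had 65.6, 66.4 and 81.5 CPM on NaCl, against 32.2, 35.2 and 35.5 CPM under mock conditions (1.05 ± 0.14, Padj = 8.86e-06). The treatments did not overlap for these 3 genes. *CBF4* (AT5G51990), a DREB factor of drought, had no mock count and 26, 4 and 28 counts on NaCl, at least 7.10-fold higher than the limit of 3 counts per library. For *ANAC019* (AT1G52890), a NAC factor, no mock library had a count and the NaCl libraries had 59, 6 and 38, at least 12.8-fold higher. Among 7 genes of small heat shock proteins and their group, 5 were upregulated and none downregulated (median 3.15). *HSP22.0* (AT4G10250), of the endoplasmic reticulum, had 20.8, 19.5 and 58.8 CPM on NaCl, against 0.706, 0.501 and 0.214 CPM under mock conditions (6.09 ± 0.64, Padj = 2.59e-07). *HSP17.6A* (AT5G12030) had 7.42, 7.44 and 12.9 CPM on NaCl, against 0.353, 0.15 and 0.161 CPM under mock conditions (5.34 ± 0.69, Padj = 3.94e-06). Both lay higher in every NaCl library, although members of this family are similar in sequence and may share reads.

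Of 18 genes of sodium and potassium transport, 7 were upregulated and 3 downregulated (median 0.24). The potassium transporter *HAK5* (AT4G13420), a gene of high-affinity uptake, had 24.2, 21.7 and 61.1 CPM on NaCl, against 0, 0 and 0.107 CPM under mock conditions. With 2 counts in the mock libraries together, the ratio of its levels was 1053, with a 95% counting interval of 291 to 8701. *GORK* (AT5G37500), an outward potassium channel, had 86.4, 89.6 and 93.2 CPM on NaCl, against 21.1, 13.7 and 13 CPM under mock conditions (2.49 ± 0.19, Padj = 2.45e-09). *SKOR* (AT3G02850), the outward channel that loads potassium into the xylem, had 4.84, 2.09 and 10.9 CPM on NaCl, against 60.4, 48 and 106 CPM under mock conditions (-3.58 ± 0.61, Padj = 1.10e-04). The related channels thus moved in opposite directions, each without overlap. *HKT1* (AT4G10310), which takes sodium out of the xylem stream, had 0.359, 0.91 and 0.54 CPM on NaCl, against 3.03, 2 and 7.18 CPM under mock conditions (-2.72 ± 0.79, Padj = 0.0134), a call lost without NaCl library 1 (log2 FC -2.47, Padj = 0.0567) and without mock library 3 (log2 FC -2.04, Padj = 0.0851). The sodium exporter gene *SOS1* (AT2G01980) had 59.6, 52.2 and 43.5 CPM on NaCl, against 51.6, 50.6 and 60.5 CPM under mock conditions (-0.07 ± 0.12, Padj = 0.733) and overlapped. *NHX1* (AT5G27150), a vacuolar exchanger, had 141, 136 and 119 CPM on NaCl, against 85.6, 83.9 and 91.2 CPM under mock conditions (0.61 ± 0.09, Padj = 2.43e-05), without overlap.

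Most aquaporins, the water channels of the plasma and vacuolar membranes, fell. Of 19 genes tested, 12 were downregulated and 2 upregulated (median -0.84), and without mock library 2 the counts were 11 and 1. The fall was called for members of both membranes. *PIP2;4* (AT5G60660) had 13.6, 17 and 12.2 CPM on NaCl, against 81.6, 78.5 and 63.2 CPM under mock conditions (log2 FC -2.38 ± 0.19, Padj = 3.74e-09). *PIP1;5* (AT4G23400) had 47.2, 58.2 and 42 CPM on NaCl, against 198, 223 and 199 CPM under mock conditions (-2.07 ± 0.16, Padj = 3.77e-09). *PIP1;3* (AT1G01620) had 222, 276 and 259 CPM on NaCl, against 670.2, 793 and 580.1 CPM under mock conditions (-1.43 ± 0.13, Padj = 2.21e-08). In each of them the NaCl libraries lay below the mock libraries. *PIP1;4* (AT4G00430) moved the other way, with 198, 188 and 187 CPM on NaCl, against 119, 108 and 118 CPM under mock conditions (0.73 ± 0.08, Padj = 6.59e-07) and no overlap.

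Genes of nitrate use rose and genes of iron uptake fell. The 15 genes of this list gave 7 upregulated and 6 downregulated genes (median 0.42), the upregulated ones all of nitrate uptake or reduction and the downregulated ones all of iron uptake. *NRT2.1* (AT1G08090), a high-affinity nitrate transporter, had 363, 374 and 340.3 CPM on NaCl, against 13.8, 12.2 and 58.6 CPM under mock conditions (3.67 ± 0.51, Padj = 9.00e-06). *NIA2* (AT1G37130), a nitrate reductase, had 1213, 954 and 1561 CPM on NaCl, against 256, 214 and 288 CPM under mock conditions (2.3 ± 0.24, Padj = 2.06e-07). The levels of both were higher in each NaCl library than in each mock library. *IRT1* (AT4G19690), the iron transporter of the root epidermis, had 25.4, 18.9 and 11.4 CPM on NaCl, against 448, 554 and 1466 CPM under mock conditions (log2 FC -5.47 ± 0.78, Padj = 1.46e-05). *FRO2* (AT1G01580), the ferric reductase, had 3.59, 5.67 and 5.61 CPM on NaCl, against 178, 229.9 and 605 CPM under mock conditions (log2 FC -6.08 ± 0.69, Padj = 7.01e-07). Both fell far below all mock libraries, of which library 3 was the highest. *bHLH100* (AT2G41240), a regulator of iron deficiency genes, had 1.08, 0.535 and 0.756 CPM on NaCl, against 7.11, 5.96 and 21.3 CPM under mock conditions (-3.85 ± 0.58, Padj = 3.06e-05). It too lay below the mock libraries throughout. *FIT* (AT2G28160), the factor with which it acts, had 111, 112 and 88 CPM on NaCl, against 115, 119 and 186 CPM under mock conditions (-0.44 ± 0.17, Padj = 0.065) and was called downregulated only without mock library 1 (log2 FC -0.56, Padj = 0.0293) or without mock library 2 (log2 FC -0.54, Padj = 0.0413).

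The study was concerned with the xylem, the water-conducting tissue of the root. Of 20 xylem regulators, 4 were upregulated and 2 downregulated (median -0.04), a count that depended on single libraries: without NaCl library 3 it was 1 and 3, without mock library 2 it was 2 and 2, and without mock library 3 it was 4 and 0. *VND6* (AT5G62380), a NAC regulator of metaxylem, had 2.33, 1.66 and 3.72 CPM on NaCl, against 0.908, 0.701 and 1.07 CPM under mock conditions (1.52 ± 0.41, Padj = 0.00721). The groups did not overlap, but without NaCl library 3 the call was lost (log2 FC 1.16, Padj = 0.058), as it was without both libraries 3 (log2 FC 1.3, Padj = 0.0659). *VND7* (AT1G71930), its relative of the protoxylem, had 2.57, 1.28 and 0.594 CPM on NaCl, against 2.82, 2.25 and 2.41 CPM under mock conditions (-0.76 ± 0.45, Padj = 0.242) and was called downregulated without NaCl library 1 (log2 FC -1.41, Padj = 0.0434). Of their targets, *MYB46* (AT5G12870) had 6.4, 7.33 and 7.67 CPM on NaCl, against 3.88, 3.15 and 3.27 CPM under mock conditions (1.05 ± 0.23, Padj = 0.00156). *MYB83* (AT3G08500) had 1.5, 1.77 and 4.05 CPM on NaCl, against 2.12, 2 and 2.2 CPM under mock conditions (0.21 ± 0.38, Padj = 0.735) with overlap. The NAC and MYB regulators thus did not move as 1 group. *PHB* (AT2G34710), which patterns the xylem axis, had 41.3, 41.7 and 42 CPM on NaCl, against 60.1, 57.4 and 71.4 CPM under mock conditions (-0.59 ± 0.13, Padj = 0.00162), with a log2 FC of -0.49, Padj = 0.0128 without mock library 3.

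For the secondary wall, 5 of 21 genes were upregulated and none downregulated (median 0.22), with 3 upregulated without mock library 1 and 1 downregulated without NaCl library 3 or mock library 3. *GXMT1* (AT1G33800), a methyltransferase of xylan, had 132, 129 and 139.5 CPM on NaCl, against 87.3, 87.7 and 76.3 CPM under mock conditions (0.67 ± 0.09, Padj = 3.72e-06). *FRA8* (AT2G28110), of xylan synthesis, had 69.2, 71.9 and 70.5 CPM on NaCl, against 43, 41 and 35.1 CPM under mock conditions (0.83 ± 0.18, Padj = 0.00126). *IRX14-L* (AT5G67230), of the same process, had 8.43, 10.6 and 13.4 CPM on NaCl, against 4.39, 3 and 4.61 CPM under mock conditions (1.43 ± 0.23, Padj = 6.54e-05). All 3 genes lay apart between treatments. The cellulose synthase genes *CESA8* and *CESA7* of the secondary wall were not called. *CESA8* (AT4G18780) had 23.1, 25.8 and 27.7 CPM on NaCl, against 27.4, 25.5 and 19.7 CPM under mock conditions (0.08 ± 0.17, Padj = 0.787). *CESA7* (AT5G17420, *IRX3* in RefSeq) had 45.5, 36.4 and 58 CPM on NaCl, against 34.8, 35.9 and 33.4 CPM under mock conditions (0.43 ± 0.16, Padj = 0.0608), with a call only without NaCl library 2 (log2 FC 0.57, Padj = 0.0169). *IRX14* (AT4G36890), *GATL1* (AT1G19300) and *TBL3* (AT5G01360), also of xylan, had log2 FCs of 0.22 ± 0.09, Padj = 0.084, 0.49 ± 0.11, Padj = 0.00149 and 0.10 ± 0.20, Padj = 0.77. *GATL1* passed the fold change limit without library 3 of NaCl (log2 FC 0.57, Padj = 9.66e-04) or of mock (log2 FC 0.54, Padj = 0.00274). *ROPGAP3* (AT2G46710), which shapes xylem wall pits, had 23.7, 26.8 and 29.1 CPM on NaCl, against 27.6, 23.5 and 34.9 CPM under mock conditions (-0.11 ± 0.14, Padj = 0.62) and overlapped. Of 5 genes of xylem cell death, 1 was upregulated and none downregulated (median -0.09): the nuclease gene *BFN1* (AT1G11190) had 19.9, 18.09 and 20 CPM on NaCl, against 9.13, 10.4 and 9.11 CPM under mock conditions (1.02 ± 0.16, Padj = 6.22e-05), while the protease gene *XCP1* (AT4G35350) had 144, 116 and 96.4 CPM on NaCl, against 109, 99.5 and 97.7 CPM under mock conditions (0.22 ± 0.13, Padj = 0.247). The 3 xylem markers summed above are *VND7*, *XCP1* and *CESA7* themselves, none of which was called. Their higher sum on NaCl is therefore not a separate measure of the xylem. The summed stele markers were lower on NaCl, and their part in these values was not tested.

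Alpha-expansins, proteins that loosen walls, rose in 8 of 16 cases and fell in none (median 0.97). The count was 6 without mock library 1 or NaCl library 3, and 10 without mock library 3 or NaCl library 1. *EXPA1* (AT1G69530) had 221, 208 and 202 CPM on NaCl, against 11.2, 12.6 and 28 CPM under mock conditions (log2 FC 3.61 ± 0.25, Padj = 7.47e-10). *EXPA10* (AT1G26770) had 118, 94.8 and 64.1 CPM on NaCl, against 1.92, 1.05 and 1.02 CPM under mock conditions (log2 FC 6.1 ± 0.37, Padj = 8.50e-11). *EXPA10* had the larger fold change and *EXPA1* the higher levels. *EXPA11* (AT1G20190) had 94.4, 83.1 and 65 CPM on NaCl, against 31.1, 29.1 and 20.8 CPM under mock conditions (1.58 ± 0.14, Padj = 2.92e-08). *EXPA9* (AT5G02260) had 164, 157 and 193 CPM on NaCl, against 88.5, 85.1 and 64.2 CPM under mock conditions (1.11 ± 0.13, Padj = 1.09e-06). For these 4 genes the treatments did not overlap. *EXPA4* (AT2G39700) had 65.6, 71.5 and 126 CPM on NaCl, against 50.4, 46.1 and 84.7 CPM under mock conditions (0.54 ± 0.23, Padj = 0.0927). *EXPA15* (AT2G03090) had 77.6, 81.2 and 94.5 CPM on NaCl, against 46.3, 49.1 and 84.5 CPM under mock conditions (0.49 ± 0.18, Padj = 0.0417). Both overlapped through mock library 3 and were called upregulated without it (log2 FC 0.86, Padj = 0.0089 for *EXPA4* and 0.82, Padj = 3.09e-04 for *EXPA15*), and *EXPA4* also without NaCl library 1 (log2 FC 0.71, Padj = 0.0418). *AT2G18150*, a peroxidase gene, had 60.3, 46.8 and 69.7 CPM on NaCl, against 2.57, 2 and 1.18 CPM under mock conditions (log2 FC 4.93 ± 0.45, Padj = 2.73e-08), without overlap.

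The XTH family was divided, with 7 of 29 members upregulated and 7 downregulated (median 0.14). *XTH19* (AT4G30290) had 219, 216 and 258 CPM on NaCl, against 67.2, 52.1 and 64.4 CPM under mock conditions (log2 FC 1.92 ± 0.13, Padj = 3.49e-10). *XTH22* (AT5G57560), also known as TCH4, had 10.8, 10.5 and 18.8 CPM on NaCl, against 1.92, 1.75 and 1.07 CPM under mock conditions (3.07 ± 0.75, Padj = 0.00387), with a log2 FC of 2.53, Padj = 0.0567 without both libraries 3. *XTH15* (AT4G14130) fell beside its near relative *XTH16*, with 21.6, 17.1 and 12.5 CPM on NaCl, against 82.7, 92.4 and 73 CPM under mock conditions (-2.28 ± 0.18, Padj = 5.57e-09). The treatments did not overlap for these 3 genes. *XTH11* (AT3G48580), with 2 counts in the mock libraries together, had 1.38, 0.375 and 2.65 CPM on NaCl, against 0.101, 0 and 0 CPM under mock conditions, a ratio of 42.8 with a 95% counting interval of 11.5 to 360 (Padj = 0.0019). Among the 6 cellulose synthases of the primary wall, *CESA2* (AT4G39350) alone was called, downward, with 182, 197 and 121 CPM on NaCl, against 278, 246 and 288 CPM under mock conditions (-0.70 ± 0.14, Padj = 8.23e-04), and the median of the list was 0.00. Without both libraries 3 its log2 FC was -0.47, Padj = 0.0172, inside the limit.

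**Figure D4:**
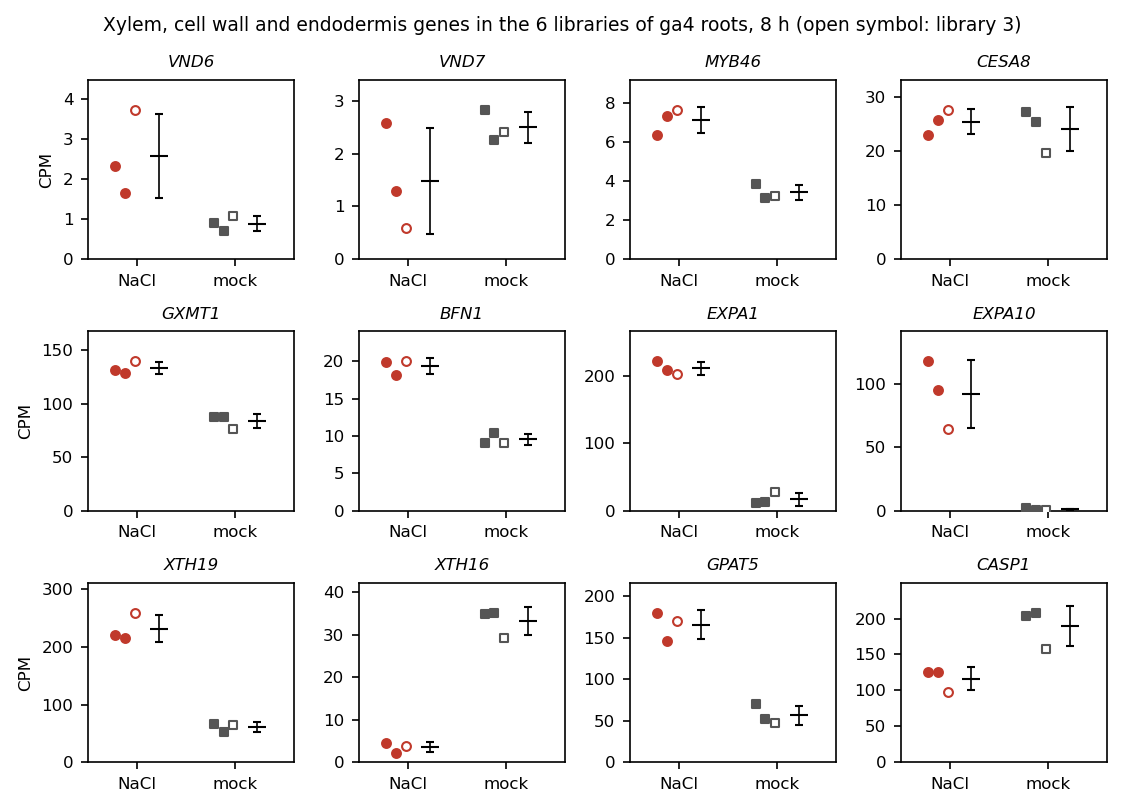
Levels (y axis, CPM) of xylem, cell wall and endodermis genes in the 3 NaCl (red circles) and 3 mock (grey squares) libraries of *ga4* roots, with the mean and SD as bars and library 3 as open symbols. *EXPA1*, *EXPA10*, *XTH19* and *GPAT5* lie higher on NaCl in every library, *XTH16* and *CASP1* lower, and *VND7* and *CESA8* overlap.

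Suberin, the waxy polymer laid down in endodermal walls, had the most uniform response of the lists of cell walls. Of 19 genes, 17 were upregulated and none downregulated (median 1.37). *GPAT7* (AT5G06090) and *GPAT5* (AT3G11430) encode acyltransferases of suberin monomers. *GPAT7* had 73.7, 60.5 and 76.5 CPM on NaCl, against 18.4, 13.3 and 18.3 CPM under mock conditions (log2 FC 2.07 ± 0.14, Padj = 3.49e-10). *GPAT5* had 179.9, 146 and 170.5 CPM on NaCl, against 70, 51.7 and 47.7 CPM under mock conditions (log2 FC 1.55 ± 0.13, Padj = 6.73e-09). A hydroxylase and a transporter moved likewise. *CYP86A1* (AT5G58860), a fatty acid hydroxylase, had 778, 624 and 578 CPM on NaCl, against 306, 235 and 221 CPM under mock conditions (1.38 ± 0.17, Padj = 2.63e-06). *ABCG6* (AT5G13580), a transporter of suberin, had 486, 397 and 449 CPM on NaCl, against 151, 95.3 and 152 CPM under mock conditions (1.74 ± 0.15, Padj = 9.59e-09). All 4 were higher in each NaCl library. The reductase *FAR1* (AT5G22500) and the regulator *MYB93* (AT1G34670) had log2 FCs of 1.74 ± 0.28, Padj = 5.42e-05 and 1.68 ± 0.17, Padj = 1.95e-07.

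The Casparian strip, the lignin barrier of the endodermis, did not follow suberin. Of 10 genes, 2 were upregulated and 4 downregulated (median -0.47), and 2 were downregulated without mock library 1, mock library 2 or NaCl library 3. *CASP1* (AT2G36100), a scaffold protein of the strip, had 126, 126 and 97.8 CPM on NaCl, against 204, 208 and 157 CPM under mock conditions (-0.70 ± 0.12, Padj = 1.07e-04). *CASP2* (AT3G11550) had 39.5, 43.2 and 29.9 CPM on NaCl, against 71, 70.6 and 52 CPM under mock conditions (-0.78 ± 0.14, Padj = 2.53e-04). Both scaffold genes fell, while a regulator and a receptor kinase rose. *MYB36* (AT5G57620), the regulator of the CASP genes, had 28.4, 25.9 and 19.8 CPM on NaCl, against 15.3, 16.4 and 10.4 CPM under mock conditions (0.81 ± 0.18, Padj = 0.00186). *GSO1* (AT4G20140), a receptor kinase of barrier integrity also called SGN3, had 199, 177 and 129 CPM on NaCl, against 96.9, 85.2 and 82.5 CPM under mock conditions (0.93 ± 0.14, Padj = 2.00e-05). None of the 4 overlapped. The cortex and endodermis markers, 3 of 4 of which (*CASP1*, *CASP2* and *MYB36*) are also in this list, summed to 257, 248 and 199.7 CPM on NaCl, against 361, 358 and 291 CPM under mock conditions, and their part in these counts was not tested. Of 13 genes of root hairs, 4 were upregulated and 1 downregulated (median 0.16), and 2 were upregulated without mock library 1, mock library 2, NaCl library 1 or NaCl library 2 and 1 without mock library 3. *PRP1* (AT1G54970), a wall protein of hairs, had 58.2, 73.5 and 23.6 CPM on NaCl, against 12, 11.8 and 17.2 CPM under mock conditions (1.92 ± 0.47, Padj = 0.004). *RHD6* (AT1G66470), a regulator of hair initiation, had 26.6, 25.5 and 30.2 CPM on NaCl, against 20.3, 19.5 and 15.3 CPM under mock conditions (0.58 ± 0.14, Padj = 0.00361), with a log2 FC of 0.46, Padj = 0.0286 without mock library 3.

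Genes of cell division fell. Of 20 genes, 16 were downregulated and none upregulated (median -0.68), and 10 were downregulated without NaCl library 1. *CDC20.2* (AT4G33260) and its tandem neighbour *CDC20.1* (AT4G33270) encode activators of the anaphase-promoting complex, and as near-identical copies they may share reads. *CDC20.2* had 8.85, 12.8 and 20.8 CPM on NaCl, against 32.6, 35.3 and 37.6 CPM under mock conditions (-1.31 ± 0.25, Padj = 4.05e-04). *CDC20.1* had 9.45, 14.2 and 27.7 CPM on NaCl, against 43.1, 42 and 41.6 CPM under mock conditions (-1.3 ± 0.30, Padj = 0.00243). *CYCB2;4* (AT1G76310) and *CYCB1;1* (AT4G37490) encode B-type cyclins, which drive entry into mitosis. *CYCB2;4* had 10.7, 13.3 and 15.2 CPM on NaCl, against 27.9, 26.4 and 26.9 CPM under mock conditions (-1.05 ± 0.20, Padj = 4.36e-04). *CYCB1;1* had 6.88, 6.85 and 14.1 CPM on NaCl, against 21, 16.7 and 19.9 CPM under mock conditions (-1.04 ± 0.26, Padj = 0.00427). All NaCl libraries lay below all mock libraries in these 4 genes, with NaCl library 3 the highest of its group. The summed level of the 4 meristem markers overlapped, at 24.6, 34.2 and 31.3 CPM on NaCl, against 30.4, 34 and 32.1 CPM.

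Among genes of other hormones, the counts for auxin were near those over all genes (10.7% upregulated and 9.01% downregulated). Of 35 auxin genes, 3 were upregulated and 4 downregulated (median -0.08). The auxin importers *LAX2* (AT2G21050) and *LAX3* (AT1G77690) had log2 FCs of -1.16 ± 0.22, Padj = 3.00e-04 and -0.82 ± 0.13, Padj = 4.69e-05, and the repressors *IAA27* (AT4G29080) and *IAA7* (AT3G23050) of -1.14 ± 0.26, Padj = 0.00224 and 0.68 ± 0.15, Padj = 0.00127. Of 15 cytokinin genes, 1 was upregulated and 4 downregulated (median -0.28), and the upregulated one, *CKX5*, was not called without mock library 1, mock library 2, NaCl library 2 or NaCl library 3. *CKX1* (AT2G41510), which breaks cytokinin down, had 0.538, 0.375 and 0.432 CPM on NaCl, against 2.47, 2.35 and 3.7 CPM under mock conditions (-2.65 ± 0.73, Padj = 0.00958), and its log2 FC was -2.39, Padj = 0.076 without both libraries 3. *ARR5* (AT3G48100) and *ARR6* (AT5G62920) encode response regulators that cytokinin induces. *ARR5* had 10.8, 10.4 and 17.1 CPM on NaCl, against 33.7, 25.5 and 32.5 CPM under mock conditions (-1.26 ± 0.24, Padj = 3.30e-04). *ARR6* had 19.3, 12.9 and 23.1 CPM on NaCl, against 38.6, 27.8 and 37 CPM under mock conditions (-0.90 ± 0.18, Padj = 5.03e-04), both without overlap. *ACS6* (AT4G11280), an ACC synthase of the ethylene pathway, had 66.3, 56.4 and 98.5 CPM on NaCl, against 13.8, 18.8 and 21 CPM under mock conditions (2.05 ± 0.33, Padj = 6.03e-05), without overlap. Of 11 JAZ genes, which repress jasmonate signalling, 2 were upregulated and 1 downregulated (median 0.44), or 1 and 1 without mock library 1, mock library 2 or NaCl library 3. *JAZ4* (AT1G48500) and *JAZ12* (AT5G20900) had log2 FCs of -1.74 ± 0.28, Padj = 5.12e-05 and 0.64 ± 0.12, Padj = 2.57e-04.

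The salt response of *ga4* was then set beside those of the other genotypes, whose libraries are separate samples. At the same limits, 2166 genes (10.6%) were upregulated and 1700 (8.35%) downregulated in *gai*, 2795 (13.7%) and 1838 (9.03%) in *della5x*, and 2616 (12.9%) and 2127 (10.4%) in Ler. Of the genes upregulated in *ga4*, 1845 were also upregulated in Ler, which is 85.1% of the *ga4* genes and 70.53% of the Ler genes, and 1388 were downregulated in both (75.72% and 65.26%). The shared upregulated genes numbered 1691 with *gai* (78% of the *ga4* genes and 78.07% of the *gai* genes) and 1832 with *della5x* (84.5% and 65.55%). The shared downregulated genes numbered 1224 with *gai* (66.78% and 72%) and 1233 with *della5x* (67.27% and 67.08%). No gene called in *ga4* was called in the opposite direction in another genotype.

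The difference between the response of *ga4* and that of another genotype was tested in the same fit. No gene differed at Padj below 0.05 by edgeR's quasi-likelihood test, and the smallest Padj was 0.212 against *gai*, 0.143 against *della5x* and 0.102 against Ler. DESeq2 gave 1, 13 and 19 genes at Padj below 0.05 against *gai*, *della5x* and Ler. At an unadjusted P below 0.05, edgeR gave 733 genes (3.6%) against *gai*, 1112 (5.46%) against *della5x* and 1025 (5.04%) against Ler. Over all genes, these shares are near those that a threshold of 0.05 alone would give, but they were higher among the genes called in *ga4*. Of the 2168 genes upregulated in *ga4*, 306 (14.1%) differed from Ler at this P, 270 with a smaller and 36 with a larger response in *ga4*. Of the 1833 downregulated genes, 147 (8.02%) differed, 60 with a smaller and 87 with a larger response. Against *gai*, 161 upregulated genes (7.43%) differed, 118 with a larger and 43 with a smaller response in *ga4*. Of the downregulated genes, 129 (7.04%) differed from *gai*, 112 with a larger and 17 with a smaller response. Against *della5x*, 223 upregulated genes (10.3%) differed, 88 with a larger and 135 with a smaller response, and 158 downregulated genes (8.62%), 129 with a larger and 29 with a smaller response. These genes were taken by their call in *ga4*, a choice that favours larger responses in *ga4*, so that the directions are a description and were not tested. Among upregulated genes, smaller responses than in Ler or *della5x* outnumbered larger ones, opposite to that choice, and the reason was not tested.

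Suberin genes were the list with the most differences from Ler, and they are described for that reason, having been singled out after their values were seen. The response of 12 of 19 suberin genes differed between *ga4* and Ler at an unadjusted P below 0.05, all 12 smaller in *ga4*, and the median difference over the list was -0.45. With both libraries 3 of *ga4* left out, 8 of the 19 differed, and with any 1 library left out between 8 and 13. The response of *ABCG2* (AT2G37360), a suberin transporter, was 0.75 in *ga4* and 1.65 in Ler, a difference of -0.90 ± 0.20, unadjusted P = 2.11e-04. For *FAR5* (AT3G44550) it was 1.55 in *ga4* and 2.3 in Ler (-0.75 ± 0.19, unadjusted P = 8.59e-04), and for *GPAT5* it was 1.55 in *ga4* and 2.22 in Ler (-0.67 ± 0.18, unadjusted P = 0.00108). The mean level of *GPAT5* on NaCl and under mock conditions was 166 ± 17 and 56.5 ± 11.9 CPM in *ga4* and 198 ± 12.1 and 42.6 ± 7.39 CPM in Ler. Against *gai*, 8 of the 19 suberin genes differed, all 8 with a larger response in *ga4*, and against *della5x* 1 differed. The count against *gai* was 5 without mock library 1 of *gai* or mock library 2 of *ga4* and 4 without NaCl library 1 of *ga4*. The call of *GPAT5* as upregulated was the same in all 4 genotypes.

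In ABA signalling, all 9 PP2C genes had a smaller estimated response in *ga4* than in Ler, 3 of them at an unadjusted P below 0.05. Over all 20355 genes, the difference from Ler was negative for 10571, negative at this P for 687 and positive at this P for 338. The PP2C genes were all upregulated, and of the upregulated genes that differed at this P, 270 responded less and 36 more. The estimate was also negative for 18 of 19 suberin genes, 14 of 18 dehydrins and stress proteins and 19 of 26 stress transcription factors, but for 7 of 16 alpha-expansins. A smaller response was thus not particular to the PP2C genes. Without mock library 3 or NaCl library 3 of Ler or NaCl library 2 of *ga4*, 1 of the 9 PP2C genes differed, and without NaCl library 3 of *ga4*, 6 differed. The 3 PP2C genes that differed with all libraries were *HAI1* and *ABI2*, with -0.84 ± 0.37, unadjusted P = 0.0328 and -0.49 ± 0.19, unadjusted P = 0.0175, and *ABI1*, with 1.9 in *ga4* and 2.42 in Ler (-0.51 ± 0.16, unadjusted P = 0.00436). *NCED3* and *CYP707A1* also responded less, with differences of -1.1 ± 0.34, unadjusted P = 0.00358 and -0.91 ± 0.25, unadjusted P = 0.00143. Of the 11 receptors, 3 had a smaller fall in *ga4*, among them *PYL6*, with -3.69 in *ga4* and -5.14 in Ler (1.46 ± 0.49, unadjusted P = 0.00744), and *PYR1* (0.40 ± 0.13, unadjusted P = 0.00477). *VND6* had log2 FCs of 1.52 in *ga4*, 1.98 in *gai*, 0.22 in *della5x* and 1.06 in Ler, and its difference was 1.3 ± 0.56, unadjusted P = 0.0286 against *della5x* and 0.46 ± 0.57, unadjusted P = 0.422 against Ler. For *GASA1*, with -2.37 in *ga4* and -2.7 in Ler, the difference was 0.33 ± 0.18, unadjusted P = 0.0792, and for *GID1B* it was -0.05 ± 0.13, unadjusted P = 0.692. *GID1B* responded more in *ga4* than in *gai* (0.52 ± 0.13, unadjusted P = 7.84e-04) and *della5x* (0.51 ± 0.13, unadjusted P = 0.00105). The log2 FC of *ROPGAP3* was -0.11 in *ga4* and 0.57 in Ler (-0.68 ± 0.20, unadjusted P = 0.00218).

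**Figure D5:**
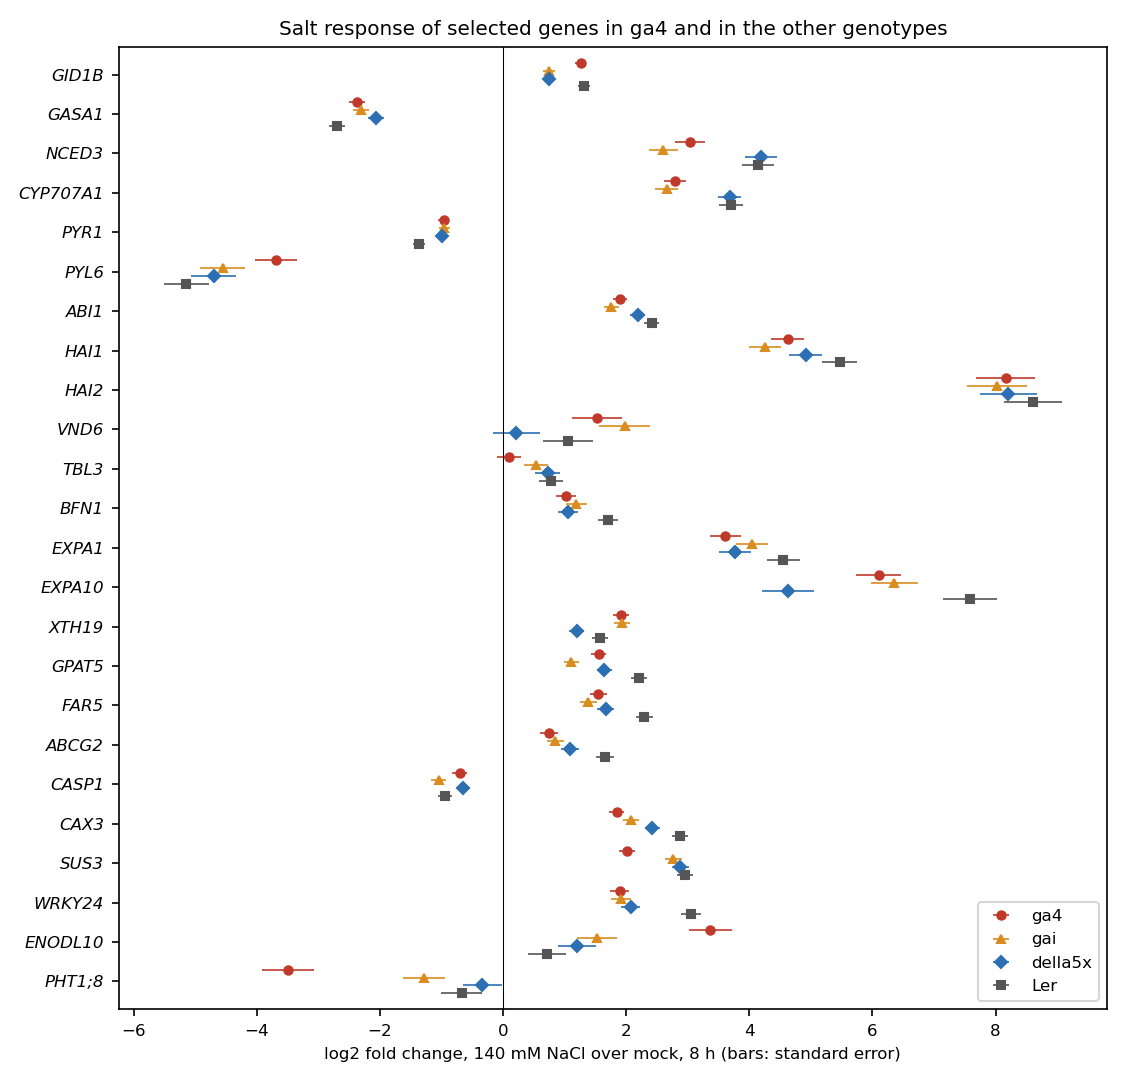
log2 FC of NaCl over mock (x axis, bars for the SE) of selected genes in *ga4* (red circles), *gai* (orange triangles), *della5x* (blue diamonds) and Ler (grey squares), each from 3 NaCl and 3 mock libraries. For *GPAT5*, *FAR5* and *ABCG2* the points of *ga4* lie left of those of Ler, *ENODL10* lies furthest right in *ga4* and *PHT1;8* furthest left in *ga4*.

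By the smallest P, the genes that differed most from Ler were *CAX3* (AT3G51860), a vacuolar calcium exchanger, with a log2 FC of 1.84 in *ga4* and 2.87 in Ler (-1.02 ± 0.17, unadjusted P = 5.25e-06). *ENODL10* (AT5G57920), an early nodulin-like wall protein. *ENODL10* had 5.74, 6.85 and 5.07 CPM on NaCl, against 0.303, 0.801 and 0.59 CPM under mock conditions in *ga4*, with a log2 FC of 3.37 in *ga4*, 1.52 in *gai*, 1.2 in *della5x* and 0.71 in Ler (2.66 ± 0.46, unadjusted P = 1.00e-05). *SUS3* (AT4G02280), a sucrose synthase, responded less in *ga4* than in each of the others, with 2.02 in *ga4*, 2.77 in *gai*, 2.88 in *della5x* and 2.96 in Ler. The difference was -0.75 ± 0.18, unadjusted P = 3.50e-04 against *gai*, -0.87 ± 0.18, unadjusted P = 7.21e-05 against *della5x* and -0.94 ± 0.18, unadjusted P = 2.71e-05 against Ler. *WRKY24* (AT5G41570), a WRKY factor, had 1.9 in *ga4* and 3.05 in Ler (-1.15 ± 0.22, unadjusted P = 2.92e-05). Falls were smaller in *ga4* for *AT1G52200*, a PLAC8 protein, with -0.73 in *ga4* and -1.67 in Ler, and for the SAUR-like auxin gene *AT4G34800*, with -0.59 in *ga4* and -1.86 in Ler. The fall of *AT4G34800* in *ga4* was not called without mock library 2, mock library 3 or NaCl library 2 (log2 FC -0.58, Padj = 0.0838, -0.55, Padj = 0.0902 and -0.39, Padj = 0.18).

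*PHT1;8* (AT1G20860), a phosphate transporter gene, fell more in *ga4* than elsewhere. It had 0.359, 0.268 and 0.216 CPM on NaCl, against 4.39, 2.5 and 2.73 CPM under mock conditions in *ga4*, without overlap, and its log2 FC was -3.49 in *ga4*, -1.28 in *gai*, -0.33 in *della5x* and -0.67 in Ler. The difference was -2.21 ± 0.55, unadjusted P = 6.05e-04 against *gai*, -3.16 ± 0.54, unadjusted P = 7.01e-06 against *della5x* and -2.82 ± 0.54, unadjusted P = 3.33e-05 against Ler. Its mean under mock conditions was 3.21 ± 1.03 CPM in *ga4*, 4.03 ± 1.11 CPM in *gai*, 5.56 ± 2.07 CPM in *della5x* and 5.32 ± 2.04 CPM in Ler (SD, n = 3 each).

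Against *gai*, the smallest P among higher log2 FCs in *ga4* were those of *AT5G47530*, an auxin-responsive membrane protein, with 0.94 in *ga4* and 0.16 in *gai* (0.78 ± 0.14, unadjusted P = 1.04e-05), of the lipid transfer protein gene *AT3G22620*, with 0.07 in *ga4* and -0.74 in *gai*, and of the transporter gene *ABCG16* (AT3G55090), with 2.98 in *ga4* and 1.31 in *gai*. *VIM3* (AT5G39550), which maintains DNA methylation, had -0.41 in *ga4* and 0.15 in *gai*. Against *della5x*, *XTH19* responded more in *ga4*, with 1.92 in *ga4* and 1.2 in *della5x* (0.72 ± 0.18, unadjusted P = 5.11e-04), and the methyltransferase-like gene *AT1G69520* had 0.26 in *ga4* and -0.96 in *della5x*. *UGT87A2* (AT2G30140), a glycosyltransferase, responded less, with 1.12 in *ga4* and 1.89 in *della5x* (-0.76 ± 0.15, unadjusted P = 6.42e-05), and the amino acid transporter gene *LHT7* (AT4G35180) had a mean of 1.17 ± 0.616 and 1.15 ± 0.298 CPM on NaCl and under mock conditions in *ga4* and, in *della5x*, of 1.21 ± 1.01 CPM on NaCl with no count in any mock library. Of 26 stress transcription factors, 8 had a smaller response in *ga4* than in *della5x* at an unadjusted P below 0.05 and none a larger one. The count was 14 without NaCl library 1 and 5 without NaCl library 3 of *della5x*. Over all 20355 genes, the difference from *della5x* was negative at this P for 720. In the edgeR fit with all libraries, none of these single differences passed the adjustment over all genes.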

How the data were processed

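RNA-seq of root segments was analysed from the counts per gene that the authors deposited. According to the methods of the study, reads were trimmed with fastp, aligned to TAIR10 with HISAT2 and counted with HTSeq, and strandedness and counting mode are not given in the sources used here. Antisense and overlapping genes can therefore not be told apart. The table held 28775 genes, of which 28009 matched TAIR10.1 (RefSeq) and 4394 had no count in any library, and 0 columns came from another series. Total counts of the *ga4* libraries were 17142998 to 19797526, so that their number and not depth limits the precision of abundant genes. Counting intervals and floors (3 counts per library) cover counting error only.

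All 24 libraries of 8 h were fitted together in edgeR 4.0.16 (R 4.3.3, limma 3.58.1) with 1 coefficient per group, TMM normalization and filterByExpr (minimum count 10, minimum total 15), which shared the estimate of spread over groups. Genes with a Benjamini-Hochberg adjusted P below 0.05 over 20355 genes and a log2 FC beyond 0.5 in size were called, and differences of responses were contrasts of the same fit. According to the methods of the study, replicates are biological, each of pooled seedlings. DESeq2 1.42.0, RLE size factors, no filter, fits of the *ga4* libraries alone, other fold change limits and leaving out each library were alternatives, while a fit with the residual component as covariate and a fit without both libraries 3 were chosen after seeing the data. The procedure was also run on simulated counts drawn independently for each library. That simulation did not include the component that sets libraries 3 apart and does not test its effect. Members and gene lists were chosen with earlier results of these data known. The genes named are the 8 with the smallest P in each direction, the 3 with the smallest P in each direction for each difference, *GA3OX1*, genes of walls and xylem on which the study centred, and up to 4 called members of each list with the largest change, together with members that define the list, less those whose call rested on single libraries, given only in part. Of the listed genes, 2 were not in the table, and those under the filter are left out of the list counts. The count of 1 list is not reported here. Promoter sequences are from RefSeq TAIR10.1. Samples of other times were not used here.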

Additional observations from a re-analysis of the deposited data

How the results depend on the processing

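The labels number the libraries through the study and not within a group, so that they give no pairs of NaCl and mock libraries. Library 3 scored highest on the residual component in every group of 8 h. A fit with the library number as a block was not run. The 2168 upregulated and 1833 downregulated genes became 1245 and 821 with a log2 FC limit of 1. Leaving out 1 *ga4* library gave 1880 to 2136 upregulated and 1586 to 1735 downregulated genes. RLE size factors, no filter on low counts, DESeq2, the *ga4* libraries alone, both libraries 3 left out, the residual component as covariate and no fold change limit kept both counts within 1.5 times. The residual component was computed from these same counts and tends to lower the spread of its fit, so that fit is not an independent check. At an adjusted P below 0.05, the 0 genes that differed from Ler in edgeR became 19 with DESeq2, 9 with the residual component as covariate and 1 without both *ga4* libraries 3, and 0 to 1 when 1 library was left out. Against *gai*, DESeq2 and the residual covariate gave 1 gene each, and against *della5x* DESeq2 gave 13. The cause of these shifts was not tested. No called gene changed sign, but 9 named genes that were not called did. Without both libraries 3 their log2 FCs were -0.043 for *GA3OX2*, -0.020 for *ERD14*, 0.13 for *SOS1*, -0.34 for *MYB83*, -0.12 for *CESA8*, -0.11 for *TBL3* and -0.15 for *AT3G22620*. With 1 library left out they lay between -0.41 and 0.41 for *GA3OX2*, -0.18 and 0.044 for *SOS1*, -0.37 and 0.46 for *MYB83*, -0.052 and 0.17 for *CESA8*, -0.10 and 0.39 for *TBL3*, -0.23 and 0.055 for *ROPGAP3* (AT2G46710), -0.15 and 0.21 for *AT3G22620*, and -0.45 and 0.33 for *LHT7*. The other fold change limits were applied to the total counts and not to single genes. Of 155 genes named, 127 were called, and 114 of these kept the call in every other alternative. Of the uncalled ones, 6 were called in at least 1. With 3 libraries a group, genes of few counts, such as *XTH11*, *HKT1* and *CBF4*, have the widest errors.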
